A study of Mus musculus with 43 samples.

Results

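The cytosolic ribosomal protein genes encode the proteins of the 60S and 40S subunits of the cytoplasmic ribosome. Members were the entries of the count table whose mouse symbol begins with Rpl, Rps or Rplp and a number and continues with letters only, which left out processed pseudogenes and like-named paralogues. The rule found 77 genes among 56941 identifiers, 47 of the large subunit (3 of them stalk genes) and 30 of the small subunit. It left out 8 like-named entries and 300 entries named as pseudogenes, and 2 members, Rps27rt and Rpl37rt, are retrotransposed copies. Rpsa, Rps3a1 and Fau encode ribosomal proteins under names that the rule does not match, and they are described apart.

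The libraries came from sorted mouse bone marrow, 43 in all. Wild-type CD45.1 mice had received 5000000 whole marrow cells positive for JAK2V617F, the activating kinase mutation of myeloproliferative neoplasms, and carrying CD45.2, without conditioning. How the donors' mutation was driven is not given in the sources used here, and the recipients kept their own marrow. About 7 months later, host cells (CD45.1, n = 7) and donor cells (CD45.2, n = 7) were sorted from the same 7 mice, and CD45.1 cells (n = 8) from age- and sex-matched wild-type mice that had received no transplant. Lineage-negative cells lacking CD45, enriched for stroma, came from the same transplanted mice (n = 7) and the same controls (n = 8). CD45.1+ CD11b+ myeloid cells came from other, male mice 52 weeks after transplantation (n = 3) and from male controls listed at the same time (n = 3). The donor library of animal N204 is titled as donor cells, while another label calls it recipient-derived. It was grouped by its title.

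Most ribosomal proteins are made in near-equal numbers and are built into a precursor subunit in the nucleolus before export. Their mRNAs belong to the TOP class, whose 5′ end is a run of pyrimidines (C or T) through which mTOR signalling controls their translation, so that mRNA level alone does not give protein output. Loss of single members, Rps19 above all, causes Diamond-Blackfan anaemia, a failure of red cell production in the marrow. Free Rpl5 and Rpl11, bound to 5S rRNA, inhibit Mdm2 and so stabilise p53.

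Start sites of the genes that the results turn on were searched for the pyrimidine run. Each window of 30 bases (10 before and 20 from the RefSeq start, GRCm38.p6, gene strand) is printed 5′ to 3′ with its longest run of C and T in capitals. Rps27, its retrotransposed copy and Rps2 come first, followed by members of the stalk and of the large and small subunit with longer and shorter runs, for comparison.
Rps27 (chr3:90213629-90213658, minus strand): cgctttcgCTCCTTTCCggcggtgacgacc
Rps27rt (chr9:114982720-114982749, minus strand): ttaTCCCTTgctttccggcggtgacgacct
Rps2 (chr17:24720053-24720082, plus strand): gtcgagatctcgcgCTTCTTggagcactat
Rplp2 (chr7:141447641-141447670, plus strand): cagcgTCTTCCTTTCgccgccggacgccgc
Rpl27a (chr7:109519185-109519214, plus strand): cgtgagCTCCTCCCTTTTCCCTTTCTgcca
Rpl7a (chr2:26910797-26910826, plus strand): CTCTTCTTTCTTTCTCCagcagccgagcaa
Rpl5 (chr5:107900518-107900547, plus strand): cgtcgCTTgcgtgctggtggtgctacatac
Rps19 (chr7:24884582-24884611, plus strand): aaTCTCgcgagactcgacgcccgacttgtg
The longest run was 9 bases at Rps27, 6 at Rps27rt and at Rps2, 10 at Rplp2, 20 at Rpl27a, 17 at Rpl7a, 3 at Rpl5 and 4 at Rps19. The run of 6 at Rps2 lay inside the transcript and not at its annotated start, and a run of at least 6 was found in 28.6% of all genes. In the windows of Rps27rt, Rpl5 and Rps19 the longest run lay wholly before the annotated start. Its length there does not describe the 5′ end of the annotated transcript. Of the 77 members, 57 had an entry in the promoter table. A run of at least 8 pyrimidines lay in the window of 20 of these 57 (35.1%), against 3.51% of them on the opposite strand, 8.70% of 69 genes of mitochondrial ribosomal proteins and 11.2% of all 27025 genes in the table. Runs of at least 10 were found in 24.6% of members and 4.77% of all genes.

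Rps27, the member with the clearest difference below, has a copy and a paralogue whose reads bear on its counting. Rps27 encodes a zinc-finger protein of the small subunit, and Rps27l a closely related protein that can take its place. The first 60 coding bases (GENCODE M21, GRCm38) are shown with capitals where Rps27 and Rps27l differ.
Rps27: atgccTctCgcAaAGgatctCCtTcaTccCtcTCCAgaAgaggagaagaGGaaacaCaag
Rps27rt: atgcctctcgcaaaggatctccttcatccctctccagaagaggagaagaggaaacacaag
Rps27l: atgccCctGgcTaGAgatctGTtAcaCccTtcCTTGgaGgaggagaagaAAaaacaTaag
The coding sequence of 255 bases is the same in Rps27 and Rps27rt, and Rps27l differs from it at 61 bases (76.1% identical), 18 of them in the stretch shown. Rps27 and Rps27l can therefore be told apart by reads, and Rps27 and Rps27rt hardly.

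Depth, in units of 1000000 gene counts, was 15.7 to 19.7 in the CD45-sorted, 41.2 to 143 in the stroma and 32.5 to 44.9 in the CD11b libraries. Markers fitted the sorts in part. Sums over 10 neutrophil markers were 91202 to 149239 counts per 1000000 (CPM) in CD11b cells, while the stroma libraries held 10 mesenchymal markers at 2872 to 16498 CPM beside 4108 to 32719 CPM of neutrophil and 2046 to 24699 CPM of erythroid markers. A few libraries stood apart in the members' share of counts and are named with each result they touch, namely control N051, transplanted stroma N032 and transplanted CD11b N129.

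Levels within one library were compared as deposited transcripts per 1000000 (TPM), which allow for transcript length. In control CD45.1 cells the 75 members other than the retrotransposed copies ranged 6.29-fold, from Rpl27a at 756 ± 90.7 TPM (SD, n = 8) to Rps29 at 4753 ± 754, with a median of 1737. Rpl13a at 4462 ± 682 and Rps27 at 4347 ± 734 TPM followed Rps29, and these 3 did not differ beyond their spread. Rplp1, which with Rplp2 forms the stalk that recruits translation factors, stood at 3741 ± 467 TPM and Rplp2 at 2103 ± 177. The medians were 750 TPM in control CD11b cells and 927 TPM in control stroma. The order of the 77 members was nearly that of the controls in host cells (Spearman's rho 0.997 across genes) and donor cells (0.989), close to it in control CD11b cells (0.912) and far from it in control stroma (0.490), which was prepared with another library kit. Rps19 led in stroma at 3510 ± 299 TPM, against 1768 ± 198 in control CD45.1 cells. Genes are not independent replicates, and the sorts differ in cells, kit and depth.

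Counts per gene did not follow TPM for every member. Rpl24, Rps10 and Rpl13a had mean CPM of 1.27, 3.89 and 24.2 in control CD45.1 cells beside 885, 2175 and 4462 TPM, that is 0.470%, 0.758% and 1.14% of the median count per unit of TPM and length. In the reference transcripts, 69.4%, 78.2% and 57.4% of their stretches of 50 bases also occur in Gm28037, RPS10-NUDT3 and Gm45713, entries with 0 counts in every library. The counts of these 3 members are uncertain, and they were left out of the plot by library. Over all members a median of 50.7% of such stretches occurs in another gene, so reads may be divided or dropped for many of them. Rps27 shares 98.6% of its stretches with Rps27rt, whose normalised CPM stayed between 3.6 and 13.2 in the CD45-sorted libraries.

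The share of all gene counts that fell on the members overlapped between the CD45 groups. It was 4.46% ± 0.756 (SD, n = 8) in controls, 4.75% ± 0.669 (n = 7) in host cells and 4.67% ± 0.520 (n = 7) in donor cells. Control libraries held 3.91% to 4.71%, apart from N051 with 6.23%, with a median of 4.2%. The log2 ratio of mean shares to controls was 0.09 for host and 0.06 for donor cells, and without N051 it was 0.17 and 0.15. Host libraries held from 3.79% (N269) to 5.84% (N005) with a median of 4.74%, and donor libraries from 3.88% (N203) to 5.31% (N014) with a median of 4.63%. The donor share lay below the host share in 4 of 7 animals. In bulk samples, fewer cells of a type and less RNA per cell cannot be told apart.

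Stroma libraries of controls held 3.23% ± 0.425 (n = 8), between 2.7% and 4.05%. Transplanted stroma held 3.16% ± 1.58 (n = 7), a mean carried by N032 at 6.68%. The other 6 lay between 2.35% and 3.14%, the median was 2.53%, and 5 of the 7 lay below the lowest control. CD11b cells of controls held 2.17%, 2.10% and 2.18%, and those of transplanted mice 2.7% (N187), 2.53% (N116) and 3.6% (N129), so these groups did not overlap (2.15% ± 0.0444 against 2.94% ± 0.579, n = 3 each). The share is a sum over chosen genes and carries no test.

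**Figure D1:**
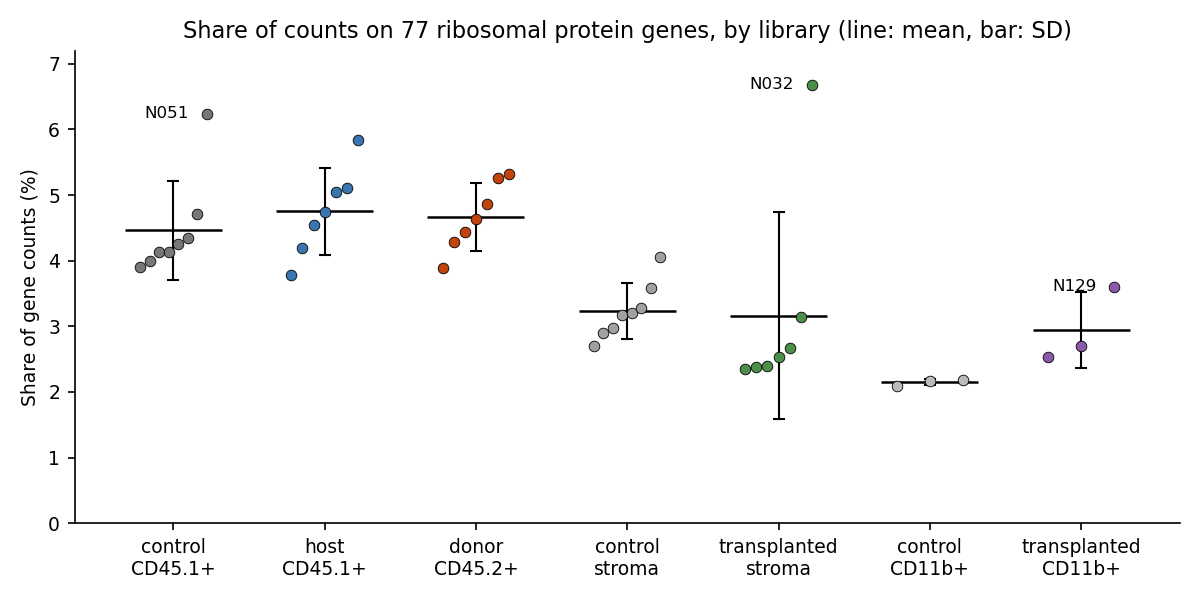
Share of gene counts (%, vertical axis) on the 77 members in each library, by group; points are libraries, lines group means and bars SD. The CD45 groups overlap, N051 (6.23%) and N032 (6.68%) stand above the rest of their groups, and the 3 transplanted CD11b libraries lie above the 3 controls.

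The members moved together from library to library. On the log2 scale of normalised CPM (CPM scaled by the trimmed mean of M-values, TMM, within each sort), the mean over 74 members varied between control libraries with an SD of 0.225, while single members varied around that mean with a median SD of 0.0477. The 2 values were 0.152 and 0.0470 in host cells, 0.110 and 0.0414 in donor cells, 0.136 and 0.0709 in control stroma, 0.428 and 0.102 in transplanted stroma, 0.0591 and 0.0411 in control CD11b and 0.160 and 0.10 in transplanted CD11b cells. Rps27rt, with few counts, varied most around the mean in every group. A library high for one member was thus high for nearly all, which makes the comparisons below sensitive to single libraries.

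**Figure D2:**
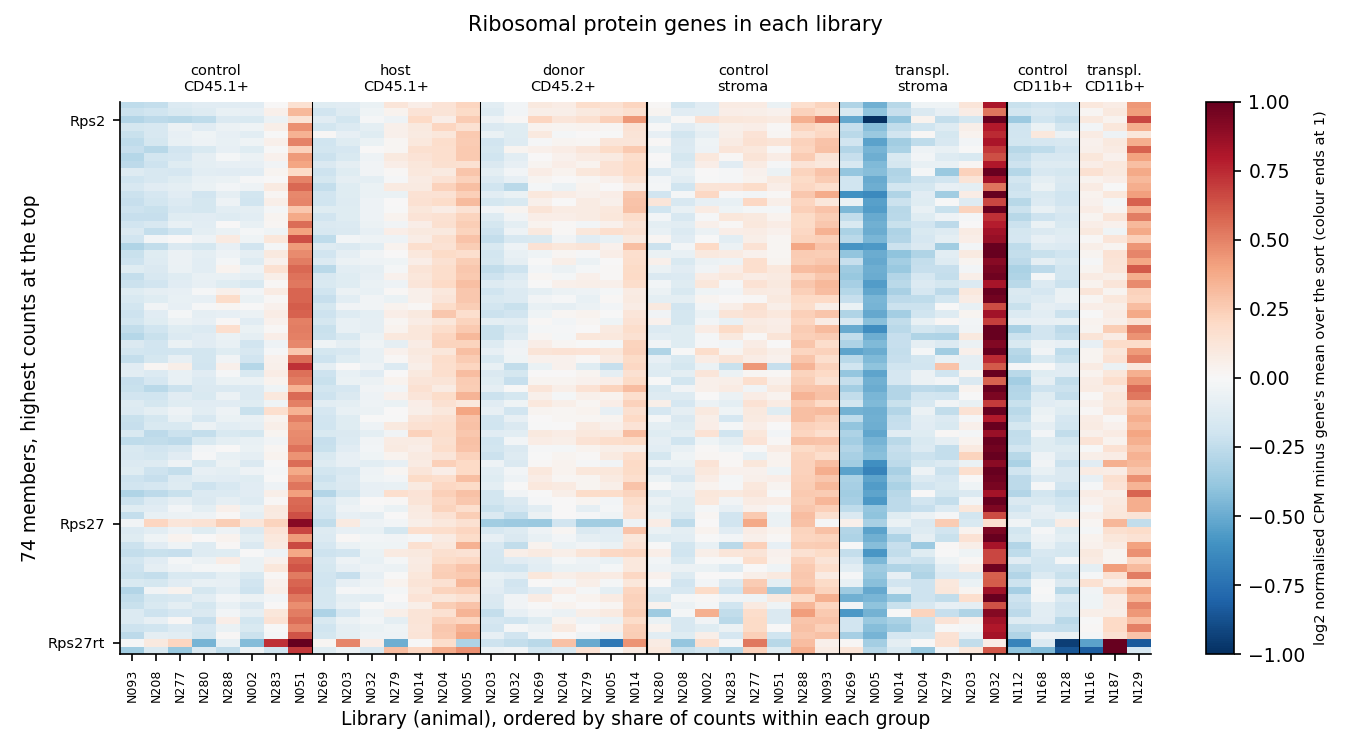
Each row is 1 of 74 members, each column a library, and colour is the log2 normalised CPM minus the gene's mean over its sort. Columns are nearly uniform, N051, N032 and N129 are the reddest of their groups, and the Rps27 row is red in most controls and blue in most donor libraries.

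Host cells against control cells ask what the transplant does to the recipient's own marrow. By edgeR's quasi-likelihood test with sex as a covariate and Benjamini-Hochberg adjustment over 14073 genes, 0 of the 77 members passed an adjusted p of 0.05, where 16.4% of all genes did (8.61% higher and 7.82% lower). Without adjustment 2 members were below 0.05 by edgeR, Rps27 and Rps2, and DESeq2 passed 0 as well. The members' median log2 fold change was 0.04, and 62 of 77 were above 0. Median standard errors were alike for members (0.102) and all genes (0.104), while the interquartile range of log2 fold changes was 0.0767 for members and 0.311 for all genes.

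This count depended on a control library. Without N051 the median rose to 0.13, 35 members were below an unadjusted 0.05 and 3 passed, all higher in host cells, where 17.2% of all genes passed. These were Rps2 with a log2 fold change of 0.23 (edgeR adjusted p 0.0370), Rps12 with 0.21 (0.0464) and Rpl37rt with 0.38 (0.0350). N051 had the fewest counts of its group and the lowest sum of 7 myeloid progenitor markers, 4395 CPM against 6408 to 8518 CPM in the other controls. Its share of mitochondrially encoded counts was 1.54%, against 0.946% to 1.16%. The part of these in the result was not tested. The fit within days of euthanasia, which also leaves out N051, passed 0 members (16 below an unadjusted 0.05), where 12.5% of all genes passed. The stroma library of N051 held 3.27%, within the range of the other control stroma.

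By role, the members stayed near the controls in host cells. The stalk genes Rplp0, Rplp1 and Rplp2 had log2 fold changes of 0.14, 0.08 and 0.06. Rpl5 and Rpl11, which carry the 5S rRNA, stood at 0.03 and 0.08, and Rps19 at 0.04. The X-linked Rps4x, Rpl10, Rpl36a and Rpl39 stood at 0.03, 0.09, 0.10 and 0.00. Of the 12 Diamond-Blackfan genes among the members, 0 passed in this or any other comparison.

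Donor cells against control cells gave 1 member higher and 1 lower, Rps2 and Rps27. In that comparison 45.7% of 13906 genes passed, 22.7% higher and 23% lower. The members' median was -0.00, 38 of 77 were above 0 and 6 were below an unadjusted 0.05. Their interquartile range of log2 fold changes was 0.157 against 0.507 for all genes, at a median standard error of 0.0994 against 0.106. Rplp0 stood at 0.18 (edgeR adjusted p 0.0590), Rpl7a and Rpl28, both of the large subunit, at 0.18 (0.0756 and 0.0766) and Rps24, a Diamond-Blackfan gene, at -0.19 (0.150). Rpl5, Rpl11 and Rps19 stood at -0.02, 0.07 and 0.01.

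The count depended on N051 here too. Without it 27 members were higher and 1 lower, the median was 0.10, and 24% of all genes were higher. Besides Rps2 (0.37), the members with the highest fold changes were Rpl14 (0.28), Rpl13a (0.26), Rps12 (0.26), Rpl28 (0.25) and Rpl7a (0.24), all passed. The counts of Rpl13a are uncertain, as given above. Within days of death the call was similar: on the 5 days that held both groups, which leave out N051, 21 members were higher and 1 lower, where 45.8% of all genes passed. Leaving out donor N203 gave 6 higher and 1 lower, where 48% of all genes passed. Leaving out donor N204, whose labels conflict, gave 1 and 1, where 23.4% of all genes were higher and 21.7% lower.

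**Figure D3:**
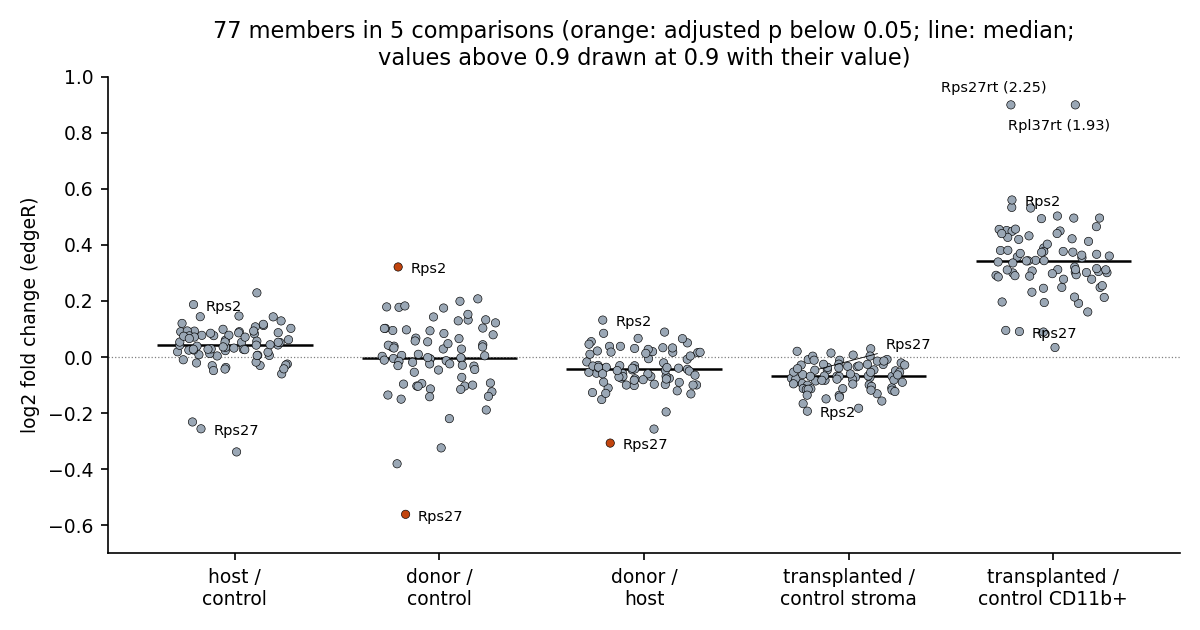
Log2 fold change (vertical axis) of the 77 members in 5 comparisons; points are genes, orange points passed an adjusted p of 0.05, lines are medians, and the 2 retrotransposed copies in CD11b cells (2.25 and 1.93) are drawn at the top edge. Rps27 passed as lower in donor cells against controls (-0.56) and against host cells (-0.31), Rps2 as higher in donor cells against controls (0.32), and all CD11b points lie above 0.

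Rps27 was lower in donor cells than in every control library. Its normalised CPM ran from 340 (median 393) to 652 in controls, from 293 (median 362) to 386 in host cells and from 268 (median 273) to 336 in donor cells. The donor range lay below the control range, while host cells overlapped both. Against controls the log2 fold change was -0.56 (SE 0.113, edgeR adjusted p 0.000606), a fold of 0.678, and without N051 it was -0.43. Rps27 was the only member whose donor and control libraries did not overlap in normalised CPM, as happened with all donor libraries lower in 9.68% of all genes. In TPM the groups touched, with 3027 ± 397 in donor cells (highest 3601) and 4347 ± 734 in controls (lowest 3535). As a share of the members' own counts Rps27 held 0.854% to 1.03% in controls, 0.711% to 0.869% in host cells and 0.574% to 0.662% in donor cells.

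Rps27 passed as lower in donor cells against controls in 31 of 31 settings, with log2 fold changes from -0.63 to -0.43. Against host cells of the same animals it was -0.31 (SE 0.0699, edgeR adjusted p 0.00649), lower in 7 of 7 animals, and it passed in 26 of 30 settings, the exceptions being females alone, males alone and limma on TPM with either pseudocount. Host cells against controls gave -0.26 (SE 0.110, edgeR adjusted p 0.119). When library size was set to the members' own sum, this became -0.29 (adjusted p 0.0393), where 6% of all genes passed. Donor against control cells gave -0.58 on that scale, where 29.4% of all genes passed, together with Rps24 at -0.21 and Rps2 at 0.28. Donor against host cells gave -0.29, where 11.6% passed. This scaling moved the median of all genes to -0.06 in host and -0.05 in donor against control cells, so its values are relative to the members and not to all genes.

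Rps27l, which the rule leaves out, went the other way. It stood at 35.5 to 41.8 normalised CPM in controls apart from N051 (56.9), at 45 to 59 in host cells and at 50.5 to 72.3 in donor cells. Its log2 fold change was 0.31 in host against control cells (edgeR adjusted p 0.0191), 0.55 in donor against control cells (8.14e-05) and 0.24 in donor against host cells (0.0429), higher in 7 of 7 animals but passed in only 14 of 30 settings. The ratio of Rps27 to Rps27l was 10.2 ± 1.18 in controls (n = 8), 6.95 ± 0.672 in host cells (n = 7) and 4.77 ± 0.476 in donor cells (n = 7). The ranges of this ratio did not overlap, at 8.14 to 11.6, 6.00 to 7.89 and 4.19 to 5.43. The ratio was formed after the values of both genes were seen and carries no test. It was 9.11 ± 2.12 and 7.67 ± 1.54 in control and transplanted CD11b cells and 2.76 ± 0.437 and 2.69 ± 0.776 in control and transplanted stroma, with overlap in both sorts.

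B-cell markers also differed between the CD45 groups. The 10 B-cell markers summed to 317 to 937 CPM in controls, 111 to 465 in host cells and 12.7 to 46.6 in donor cells, and all 10 were lower in host and in donor cells than in controls. T and NK markers were lower in donor cells for 9 of 10 genes, while in host cells 1 was higher and 0 lower, with sums of 148 to 249.6 CPM beside 151 to 235 in controls. In the CD11b sort B-cell markers summed to 33.8 to 84.3 CPM in controls and 14.8 to 54.0 CPM after transplantation. Of these 10 markers 1 was above 0 (median -1.07) and 0 passed. Rps27 differed there by 0.09 (SE 0.147, edgeR adjusted p 0.779) beside a median of 0.34 over the members. Its share of the members' counts there was 1.15% to 1.40% in controls and 0.775% to 1.40% after transplantation, and scaled to the members' sum the difference was -0.22 (adjusted p 0.498). N051 had the highest Rps27 of the controls and a B-cell sum of 937 CPM, while N002 with a sum of 934 CPM had Rps27 at 378. The part of cell content in the fall of Rps27 was not tested. Rps27l is also a known p53 target. Of the other p53 targets tested, 3 of 12 were higher and 2 lower in host cells, and 3 of 11 higher and 2 lower in donor cells, both against controls.

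Rps2, a small-subunit protein near the mRNA entry channel, was the member that rose in donor cells. It ran from 1027 (median 1096) to 1379 normalised CPM in controls, from 1110 (median 1246) to 1498 in host cells and from 1219 (median 1411) to 1697 in donor cells, so that the groups overlapped. The log2 fold change of donor against control cells was 0.32 (SE 0.0852, edgeR adjusted p 0.00516), and it passed in 30 of 31 settings, the exception being males alone. In host against control cells Rps2 was at 0.19 (adjusted p 0.124). Rps2 was higher in donor than in host cells in 6 of 7 animals.

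**Figure D4:**
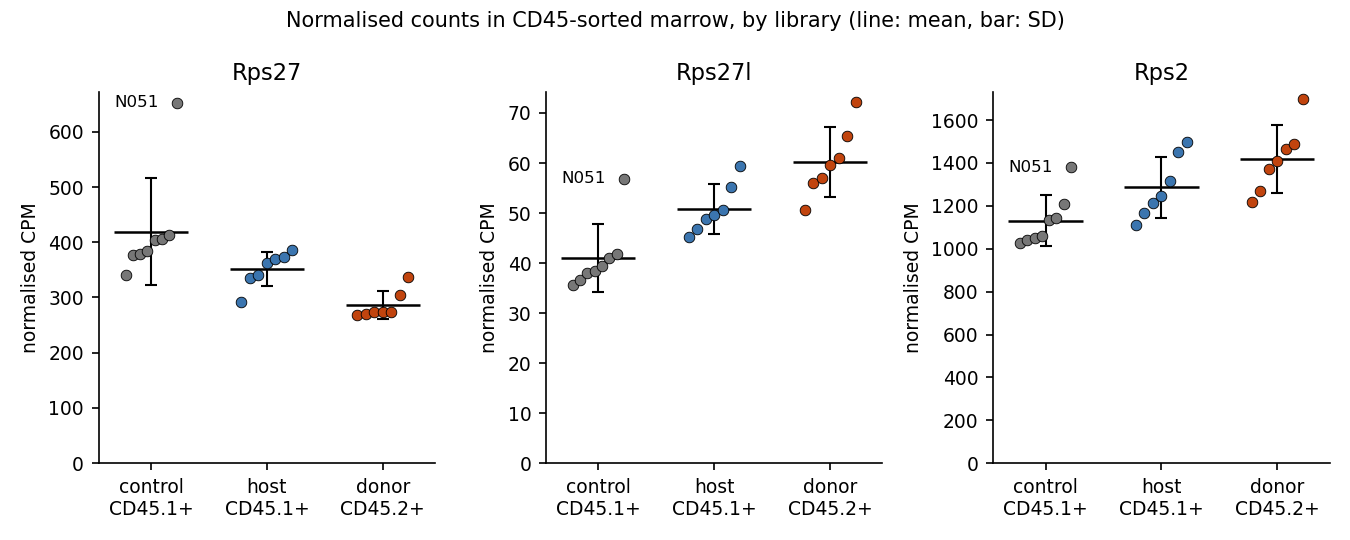
Normalised CPM (vertical axes from 0) of Rps27, its paralogue Rps27l and Rps2 in control, host and donor cells; points are libraries, lines means and bars SD. Donor libraries lie below all controls for Rps27, while the means of Rps27l and Rps2 step upward from control to host to donor.

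Other lists of ribosome production and translation held more genes past the threshold. In donor against control cells, where 22.7% of all genes were higher, 65 of 78 mitochondrial ribosomal protein genes were higher and 1 lower (median 0.38), led by Mrpl12 at 0.65. Ribosome assembly factors were higher for 32 of 43 (median 0.36), with Wdr12 at 0.72, Noc4l at 0.61 and Nhp2 at 0.66. Of 27 translation initiation factors 17 were higher and 2 lower (median 0.23), with Eif2s1, a subunit of the factor that delivers the initiator tRNA, at 0.42. Of 15 other TOP mRNAs 6 were higher, among them Npm1 (0.42) and Eef1g (0.33). The median over all genes was -0.00. Without N051 the 4 lists gave 68, 32, 19 and 9 higher, beside 27 of the 77 members. The lists were not tested against the members.

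In host against control cells, where 8.61% of all genes were higher, 23 mitochondrial ribosomal protein genes, 10 assembly factors and 6 initiation factors were higher, 1 initiation factor (Eif4a2, -0.25) was lower and 0 other TOP mRNAs passed. Without N051 the lists gave 37, 10, 10 and 2 higher. In donor against host cells, where 4.17% of all genes were higher, the first 3 lists gave 10, 7 and 1 higher, the last a share near that of all genes, and 0 other TOP mRNAs passed. Larp1, which binds TOP mRNAs when mTOR is inactive, was higher in host (0.34) and donor cells (0.49) than in controls, and Myc was lower in donor cells (-0.40). Of the 12 genes in that list of mTOR and Myc genes, 1 was higher in host cells than in controls. In donor cells 2 were higher and 2 lower than in controls. Among all genes 8.61% were higher in host cells, and 22.7% were higher and 23% lower in donor cells. The list thus held no larger share of these calls than all genes did. Of 7 myeloid progenitor markers, 3 were higher in host and 7 in donor cells against controls, and their part in these counts was not tested.

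**Figure D5:**
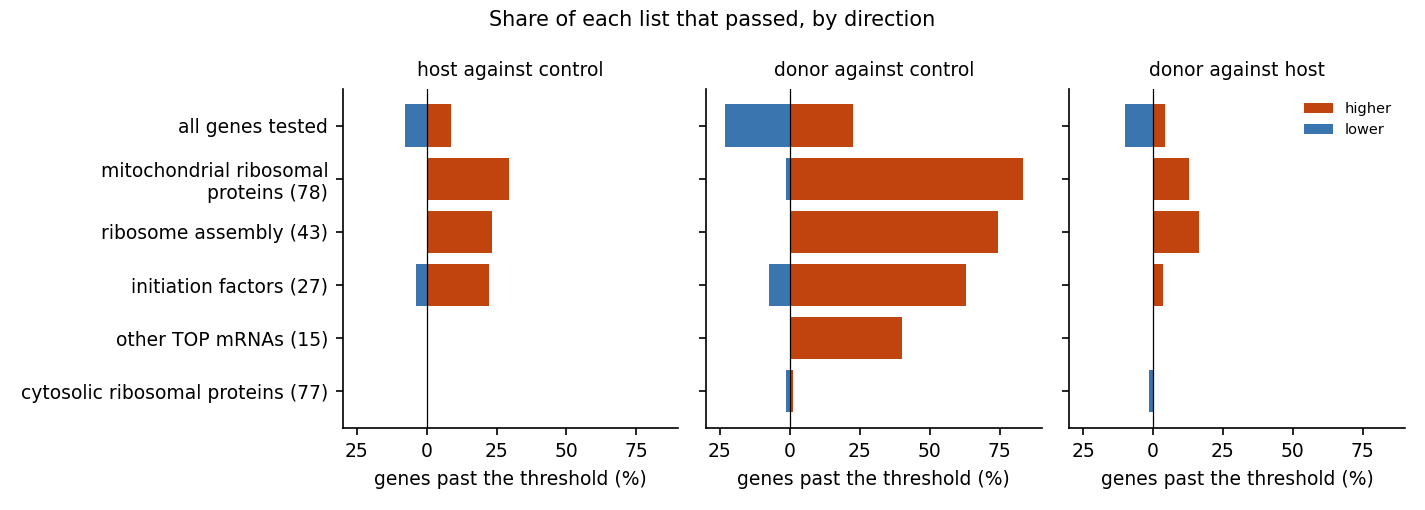
Percentage of each gene list that passed an adjusted p of 0.05 as higher (right, orange) or lower (left, blue) in 3 comparisons, beside all genes tested. Mitochondrial ribosomal proteins, assembly factors and initiation factors show long bars in donor against control cells, and the cytosolic members 1 gene each way.

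Donor against host cells compared mutant and wild-type cells of the same animals. These cells also differed in origin and CD45 type, and 10 of 10 B-cell and 9 of 10 T and NK markers were lower in donor cells. The part of each beside the mutation was not tested. Rps27 alone passed among the members, where 14.1% of 13662 genes did (4.17% higher and 9.94% lower). The members' median was -0.04 and 23 of 77 were above 0. With the animal as a block, Rps27 stayed at -0.31 (SE 0.0468, edgeR adjusted p 0.000185) and Rps2 passed at 0.13 (adjusted p 0.0402), where 33.7% of all genes passed. The stalk genes stood at 0.04, -0.03 and -0.07 without the block. This comparison shares its libraries with the 2 above.

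In stroma 0 of 77 members passed and 0 were below an unadjusted 0.05 by edgeR, where 1.49% of 26191 genes passed, and DESeq2 passed 0. The median was -0.07, and 6 of 77 were above 0. Rps2 ran from 653 (median 758) to 1002 normalised CPM in controls, and from 321 (median 596) to 720 in transplanted stroma apart from N032 with 1620. Rpl12, a large-subunit stalk-base protein, ran from 152 (median 174) to 205 in controls and from 116.4 to 160.6 in transplanted stroma apart from N032 with 316. N032 was thus above every control for both genes, while 5 of the other 6 transplanted libraries lay below every control.

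Without N032 all 77 members were below 0 with a median of -0.28, and 58 were below an unadjusted 0.05, again moving together. None of them passed (smallest edgeR adjusted p 0.0575, Rpl12), where 593 of 26332 genes did. N032 also had the lowest sum of mesenchymal markers, 2872 CPM, an erythroid sum of 13851 CPM and the highest sums of assembly factors and mitochondrial ribosomal proteins, 14047 and 8865 CPM. Of 10 erythroid markers 7 were higher (median 2.90 over the 10) in transplanted stroma, as were 3 of 10 monocyte markers, and their part was not tested. N032 died on a day without a control, so the within-day fit leaves it out; there the median was -0.13 and 0 passed. Of the other lists, 1 of 43 assembly factors was lower (Gar1, -1.84) and 0 mitochondrial ribosomal proteins, initiation factors and other TOP mRNAs passed. The host and donor libraries of N032 held 4.54% and 4.28% of counts on members.

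In CD11b cells all 77 members were above 0 with a median of 0.34, and 0 passed by edgeR, where 0% of 15257 genes did. Unadjusted, 66 members were below 0.05, all higher, a count over members that move together. The smallest edgeR adjusted p among them was 0.270. In 64 members every transplanted library lay above every control, as it did in 12.2% of all genes. DESeq2 passed 15 members, all higher, where 1.29% of the genes it tested passed. Rps18, a protein of the small subunit's head, stood at 299, 273 and 285 normalised CPM in controls and at 405 (N187), 348 (N116) and 488 (N129) after transplantation. Its fold change on the log2 scale was 0.53 with an SE of 0.130 (edgeR adjusted p 0.270). Rplp0 stood at 746, 730 and 740 against 897, 917 and 1150. Neither gene overlapped between groups, and N129 was highest for both.

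Other members of the sort followed. Rpl5, Rpl11 and Rps19 had log2 fold changes of 0.45, 0.37 and 0.46, and Rpl36a and Rpl8 of 0.49 and 0.42. Rps27 and Rps29 stood at 0.09 each. Rps27rt and Rpl37rt had the highest values, 2.25 and 1.93, from N187 alone, with 14.2 and 13.4 normalised CPM against 0.850 to 1.49 and 1.15 to 1.87 in the other 5 libraries. The excess in N187 was not particular to these members. Entries named as ribosomal protein pseudogenes held 0.0231% of its counts, against 0.00379% to 0.00663% in the other 5 libraries. Without N129 the median was 0.23, 77 members were above 0, 62 were below an unadjusted 0.05 and 0 passed. N129 had 91202 CPM of neutrophil markers against 132185 to 149239 in the other 5 libraries, and 7763 CPM of myeloid progenitor markers against 4324 to 5815. Summed progenitor markers were higher in all 3 transplanted libraries, and so were monocyte markers (1873 to 2293 CPM against 1585 to 1601). T and NK markers summed to 104 to 201 CPM against 82.2 to 87.2 (above 0 for 10 of 10 genes, median 1.65, 0 passed). Nkg7 alone stood at 95.3 to 118 normalised CPM against 73.0 to 85.8 in controls. The other T and NK genes were low, and some overlapped between groups, as Cd8a did with 0 to 8.79 against 0.497 to 0.633. The part of these markers was not tested. Assembly factors (median 0.32) and other TOP mRNAs (median 0.34) were near the members, and 0 of them passed. Scaling to the members' own sum holds the members near 0 by construction. On that scale their median was 0.01 and that of all genes -0.31, which restates the members' rise and does not test it.

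No difference between the sexes passed. In edgeR's test of the interaction of sex and transplantation 0 members passed, and 0 were below an unadjusted 0.05, in CD45.1 cells and in stroma, where 0% and 0% of all genes passed. Slopes on the logarithm of the final blood chimerism gave 0 members passed in host, donor and stroma libraries, where 0%, 0% and 0% of genes did. In host cells, where Rpl24 did not pass the filter on low counts, the 76 fitted slopes were all above 0 and 13 were below an unadjusted 0.05 (smallest adjusted p 0.929, Rpl39), in donor cells 1 was and in stroma 0 were.

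Of the subunits under other names, Rpsa, Rps3a1, Fau and the 40S-bound scaffold Rack1 did not pass in any comparison of the CD45 sorts. Fau stood at -0.18 in donor against control cells (edgeR adjusted p 0.157), Rpsa at 0.11, Rack1 at 0.09 and Rps3a1 at -0.06. Among paralogues Rpl3l, the muscle form of Rpl3, was lower in host (-0.68) and donor cells (-1.42) than in controls at 0.379 to 2.13 normalised CPM, and Rpl7l1 was higher in donor cells (0.35).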

How the data were processed

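Raw counts per gene were deposited by the authors for 43 libraries, with TPM beside them. Per the submitters' processing notes, STAR 2.7.3a, Subread 1.6.2, featureCounts and GRCm39 were used, and RSEM 1.3.3 for CD11b cells. Strand setting, treatment of reads with several matches, and annotation are not given in the sources used here, and reads without molecular identifiers are not independent molecules. Per the labels' protocols, stroma RNA went through a low-input kit and was sequenced in more than 1 run, and the other RNA through a stranded poly-A kit.

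Genes were tested on the deposited counts with edgeR 4.0.16 in R 4.3.3 (filterByExpr, TMM, glmQLFit, glmQLFTest), with sex as a covariate except in the all-male CD11b sort, and with Benjamini-Hochberg adjustment over all genes tested at 0.05. The SE was the log2 fold change divided by the square root of F. All 77 members passed the filter in the 5 group comparisons. DESeq2 1.42.0 and limma 3.58.1 were alternatives. Groups came from sample titles and animal identifiers. P-values measure the spread between animals. In donor against host cells, however, the main fit treated the host and donor libraries of an animal as independent. The fit with the animal as a block did not.

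Named were, in each comparison, up to 8 members passed in each direction with the most extreme fold changes, or the 3 with the smallest p where fewer than 3 passed, and in all of them the stalk genes, Rpl5, Rpl11, Rps19, the X-linked members and the 3 highest and 3 lowest in TPM. Of the other lists up to 4 genes with the smallest p were named, and the paralogues and subunits under other names. A withheld item is not reported here. Rps27l and the sequences were given more room after their values were seen. Members and lists were chosen with earlier results of these data known.

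Host and donor libraries of the same animal deviated together (correlations 0.199 to 0.649 over 13662 genes, each above that with any other animal). Sequences are from RefSeq (GRCm38.p6) and GENCODE M21, while the files use GRCm39, so that the reference served for sequences and names only. The fit was tested on simulated counts: of genes changed by 1 on the log2 scale it recovered 93.9% for host against control, 90.9% for donor against control, 91.8% for donor against host, 26.9% for stroma and 56.4% for CD11b cells. Of genes changed by 0.5 it recovered 60.2%, 47.4%, 50.5%, 0% and 12.1%.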

Additional observations from a re-analysis of the deposited data

Results flagged for a closer look

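Of 40 groups of values examined, 10 held a library far from the others by Dixon's test at 95%, a rule by which chance flags about 1 in 20 groups. All 10 belong to 2 libraries.

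Control N051 stood above the other CD45.1 controls in the members' share of counts, 6.23% against 3.91% to 4.71%. Rps27 was at 652 normalised CPM there against 340 to 412, Rps27l at 56.9 against 35.5 to 41.8, and Rpl37rt at 9.04 against 4.25 to 5.35.

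Stroma of transplanted animal N032 stood above its group in the share of counts, 6.68% against 2.35% to 3.14%, and in the share of TPM, 15.1% against 6.57% to 8.05%. Its ratio of large to small subunit counts was 1.48 against 1.55 to 1.58. Rps2 was at 1620 normalised CPM against 321 to 720, Rps27l at 431 against 153 to 242, and Rpl37rt at 9.81 against 4.91 to 6.98.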

How the results depend on the processing

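The number of members passed depended on single libraries and on the sample subset. For host against control cells it was 0, between 0 and 3 when each library was left out in turn, and 1 with library size set to the members' sum (chosen after seeing the data), with or without N051. For donor against control cells it was 2, between 2 and 28 on leaving out each library (28 without N051, 7 without donor N203), 4 by DESeq2, 22 with day of euthanasia as a block, 9 in females, 1 in males, 5 by limma on log2 TPM with a pseudocount of 1 and 5 with 0.1, and 14 with the members' sum and without N051. For donor against host cells it was 1, 2 with the animal as a replicate block, 2 with that block and the members' sum, and 0 in females, in males and by limma with either pseudocount; the cause was not tested, beyond the fewer samples in each sex. The block changed no other call among members. For CD11b cells it was 0, and 15 by DESeq2. Stroma stayed at 0 in 30 of 30 alternatives. No call past the threshold changed direction. The ratio of shares changed sign in donor against host cells and in stroma, each by less than the spread between libraries. The members' median did so in stroma (up to 0.06). With library size set to the members' sum, their median in CD11b cells was 0.01, and -0.0045 without N129. That scaling holds it near 0 by construction. Of alternatives for named genes, 566 of 570, 600 of 630, 632 of 638, 600 of 600 and 317 of 323 kept their side of the threshold. The order is host, donor, donor against host, stroma and CD11b. Genes that passed in neither fit were counted as kept even where their sign changed, as for Rps27 in stroma (-0.12 to 0.17). The log2 ratio of shares ranged over leave-one-out fits from 0.03 to 0.17, 0.03 to 0.15, -0.07 to 0.03, -0.33 to 0.03 and 0.28 to 0.55. At these group sizes, changes near 0.5 on the log2 scale in stroma and CD11b cells were mostly below detection in simulated counts.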
